A study of Mus musculus with 6 samples.

Results

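The genes described here present peptides to T cells or respond to interferon. They were taken as every array probe with a RefSeq accession whose gene symbol starts with H2- or is one of 29 listed symbols. This rule uses no measured value, but it was drawn up when earlier results of these data were known, so the members' shares given beside those of all features are a description and not independent evidence. Of 45616 features measured on the arrays, 66 genes read by 97 probes were members. They comprised 38 of the 50 H2- genes of the annotation and 28 of the 29 listed symbols, while Ifitm2 had no matched probe. H2-Ke6 carries the prefix because it lies in the same gene region, but it encodes an enzyme and not an MHC molecule, and it is kept here as the rule requires.

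The major histocompatibility complex (MHC, named H2 in the mouse) encodes cell surface proteins that display peptides. Class I molecules consist of a heavy chain and the light chain B2m, are made by nearly all nucleated cells and carry peptides that the proteasome cuts and the Tap transporter moves into the endoplasmic reticulum. Class II molecules are made mainly by professional antigen-presenting cells and need the invariant chain Cd74 and the H2-DM proteins to be loaded. Interferons act through receptors, kinases and transcription factors such as Stat2 and Irf9 and switch on both this machinery and a set of antiviral effector genes. In islets, class I expression and the interferon response are known from work on autoimmune diabetes.

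Cells were sorted from the islets of pups at postnatal day 1 (P1), and Wnt4hi cells (GFP-positive) were compared with Wnt4low cells (GFP-negative), with 3 arrays of each. All pups carried Wnt4eGFPCre, a knock-in allele at which Wnt4 drives Cre, and the mTmG reporter, which turns permanently from red to green in cells that have made Cre, and no treatment was given. GFP therefore marks cells that had expressed Wnt4 at some time, and the GFP-negative gate could hold any islet cell without Cre. Each array held RNA pooled from 3 or 4 pups that was amplified from a very small amount, and p-values measure only the spread between these pools. The comparison asks how cells with and without a history of Wnt4 expression differ in the first days of life.

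Values are normalised log2 intensities, on which a difference of 1 is a doubling, and differences are Wnt4hi minus Wnt4low from limma. Intensities of different probes do not give the relative levels of their genes, so differences are taken only within a probe between arrays. Where a list's summed intensity or its brightest genes are given, this describes the probes' signal and not the order of RNA levels. Arrays are given in the order replicates 1, 3 and 4 for Wnt4low and 2, 3 and 4 for Wnt4hi. The labels were borne out by Wnt4, which was 9.85, 10.10 and 9.31 in Wnt4low and 11.20, 10.53 and 10.77 in Wnt4hi, without overlap (adjusted p = 0.21). The insulin gene Ins2 lay between 15.81 and 16.66 on all 6 arrays. Between 70.5% and 79.5% of spots were well above background per array, and 0 spots were saturated.

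The interferon-induced effector genes were mostly lower in Wnt4hi cells, whereas H2-Q1 alone passed the unadjusted threshold among the class I heavy chains. At the unadjusted threshold of p 0.05, 12 of the 66 members (18.2%) were lower in Wnt4hi, against 5.53% of all features, and 3 members (4.55%) were higher, against 5.06% of all features. The share of members that were higher was thus no larger than over the whole array. After adjustment over all features 4 members, Oasl2, Ifitm1, Rsad2 and B2m, were lower (6.06% against 0.406% of all features), and 0 were higher, against 0.0351% of all features. At the unadjusted threshold that count of higher members was 3. With any 1 of the 6 arrays left out, 0 members passed after adjustment, and 10 to 15 were lower at the unadjusted threshold. With the replicate number as a block 0 members passed after adjustment as well. Under other alternatives Cd74, Ifitm3 and Isg15, which were lower, and Usp18, which was higher, also passed it, with the lowest adjusted p at 0.027, 0.032, 0.029 and 0.038. They did so under 4, 3, 3 and 1 of 15 alternatives, and their highest adjusted p was 0.22, 0.20, 0.21 and 0.43. The 0.029 and 0.038 come from the authors' normalized table, whose values for Wnt4hi replicate 2 could not be traced to its scanner output. In 10 members (15.2%) every Wnt4hi array lay below every Wnt4low array, against 6.44% of all features, and in 6 members (9.09%) every Wnt4hi array lay above, against 9.63%. The median difference over the members was 0.03, close to the 0.07 over all features, and 31 members lay below 0 and 35 above, where 16622 of all features lay below and 28994 above.

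**Figure D1:**
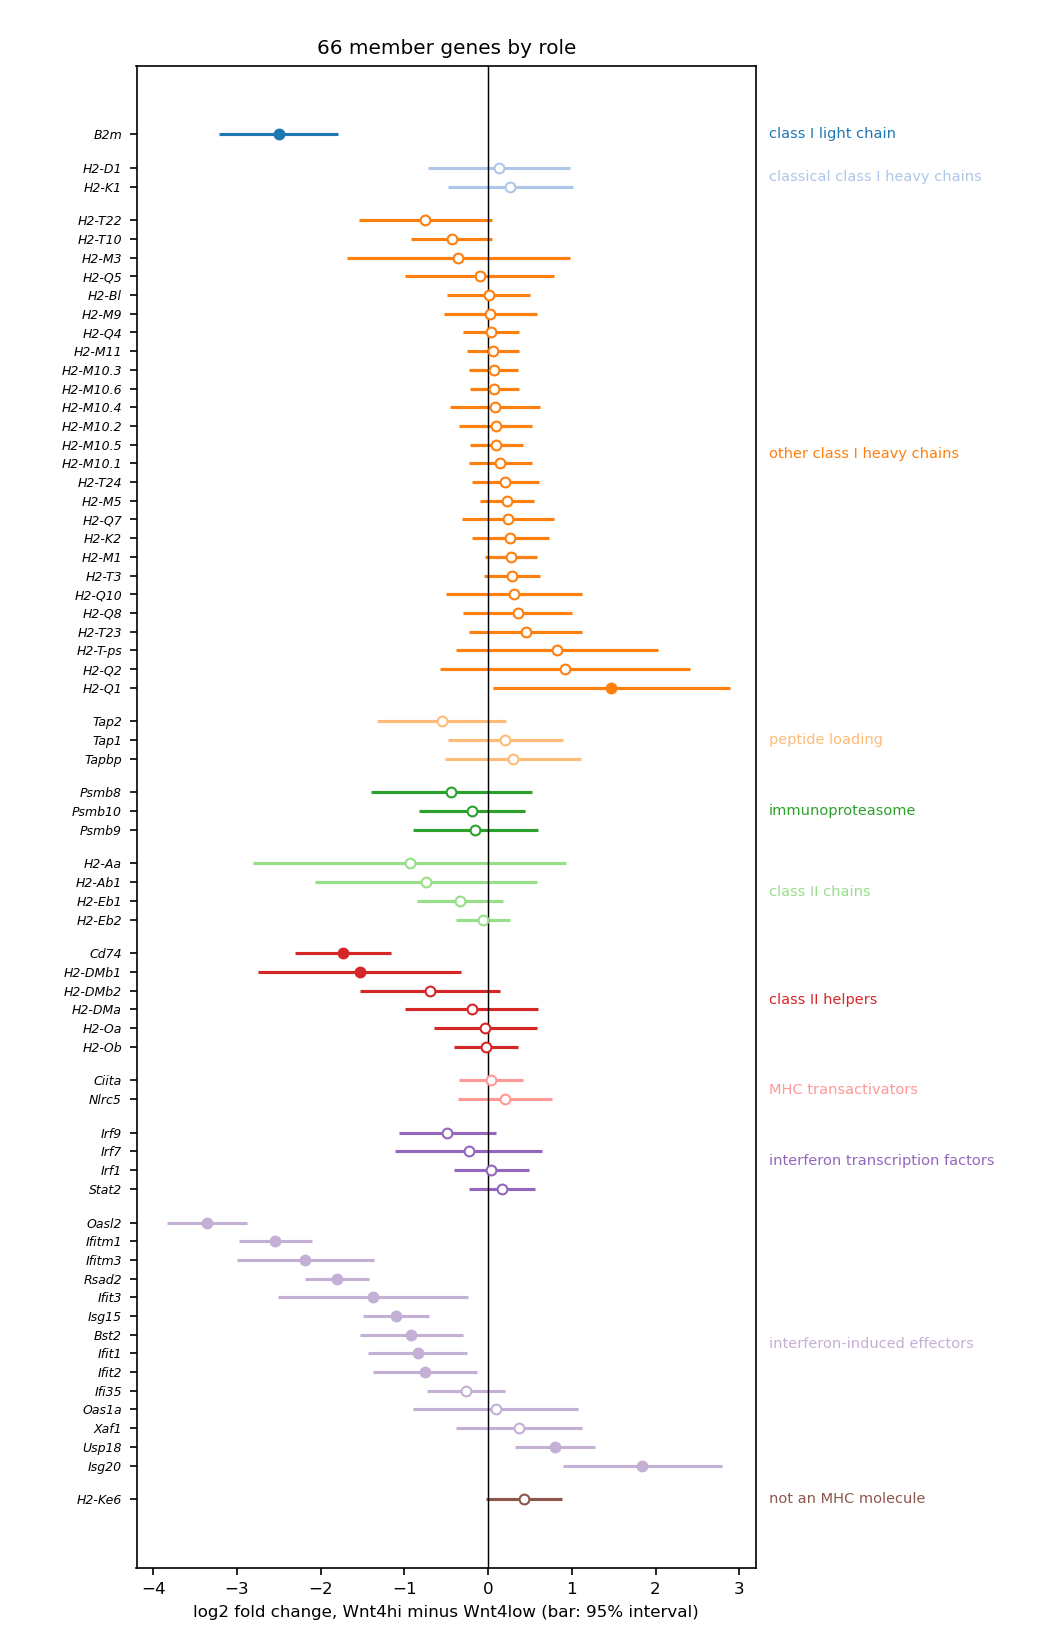
Log2 fold change of each member gene (Wnt4hi minus Wnt4low, horizontal axis) with its 95% interval from limma, grouped and coloured by role; filled dots are members at an unadjusted p under 0.05. Of the 14 interferon-induced effectors, 9 lie to the left of 0 with filled dots and 2 to the right, B2m lies at -2.50, and the intervals of the class I heavy chains other than H2-Q1 include 0. Oasl2, Ifit1 and Ifit3, not well above background on any Wnt4hi array, are drawn at their measured difference.

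Among the 14 interferon-induced effectors, 9 were lower in Wnt4hi, 2 were higher and 3 did not pass the unadjusted threshold, with a median difference of -0.88 against 0.07 over all features. The endothelial markers given further on were lower as well (12 of 12), and their part in this was not tested. In sorted cells measured in bulk, fewer cells of a type and less RNA per cell cannot be told apart. Oasl2, a relative of the enzymes that sense double-stranded RNA, was 9.27, 9.39 and 9.70 in Wnt4low and 5.93, 6.40 and 5.96 in Wnt4hi. The Oasl2 probe was not well above background on any of the 3 Wnt4hi arrays, so only a bound can be given, which was at least 4.35-fold lower in Wnt4hi (adjusted p = 0.018). The bound sets the Wnt4low mean against the lowest signal well above background on each Wnt4hi array. This bound and those given below concern the means and make no allowance for the spread between arrays.

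Ifitm1 and Ifitm3 encode small membrane proteins that hinder the entry of viruses. Ifitm1 was 11.59, 11.88 and 12.10 in Wnt4low and 9.32, 9.14 and 9.47 in Wnt4hi. The Ifitm1 groups were far apart, with a difference of -2.54 (SE 0.18, adjusted p = 0.019). Ifitm3 was 12.42, 12.99 and 12.72 in Wnt4low and 11.11, 9.87 and 10.60 in Wnt4hi. This difference of -2.18 (SE 0.34) was as clear in its direction on every array, but the spread among the Wnt4hi arrays was wider and the adjusted p was 0.071.

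Rsad2 (viperin) makes a nucleotide analog that stops viral polymerases, and Isg15 is a ubiquitin-like protein that is attached to other proteins. Rsad2 was 9.91, 9.97 and 10.20 in Wnt4low and 8.02, 8.34 and 8.30 in Wnt4hi, a difference of -1.81 (SE 0.16, adjusted p = 0.026). Isg15 was 11.53, 11.66 and 11.71 in Wnt4low and 10.31, 10.77 and 10.52 in Wnt4hi, a difference of -1.10 (SE 0.16, adjusted p = 0.067). On these probes the arrays of a population lay close together and the populations did not overlap. A second, dimmer Rsad2 probe overlapped between the populations (difference -0.09, SE 0.26), and with the mean of probes the difference of Rsad2 became -0.95 (adjusted p = 0.11).

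Bst2 (tetherin) holds budding virus particles at the cell surface. It was 11.11, 10.98 and 10.54 in Wnt4low and 10.36, 9.94 and 9.58 in Wnt4hi, which did not overlap (difference -0.92, SE 0.25, adjusted p = 0.26). The Ifit genes encode proteins that bind foreign RNA. Ifit3 was 7.94, 7.67 and 9.46 in Wnt4low and 7.16, 6.93 and 6.87 in Wnt4hi, where no array had its signal well above background. Its mean was at least 2.04-fold lower (unadjusted p = 0.025 from limma, adjusted p = 0.36), while the 95% interval of the measured difference reached up to -0.235. Without Wnt4low replicate 4, the highest of the Ifit3 values, the measured difference of -1.37 became -0.82, and without Wnt4hi replicate 3 or 4 the unadjusted p from limma was 0.063 or 0.068. Ifit1 was well above background on 1 of the 6 arrays only, a Wnt4low array, so no fold is given. Its measured means, which lie largely at background, were 7.45 in Wnt4low and 6.61 in Wnt4hi (adjusted p = 0.28). Ifit2 was 9.21, 8.51 and 9.26 in Wnt4low and 8.17, 8.02 and 8.53 in Wnt4hi. The lowest Wnt4low value of Ifit2 lay just under the highest Wnt4hi value, and its difference of -0.76 (SE 0.26) had an unadjusted p of 0.025 from limma and an adjusted p of 0.36. Without Wnt4low replicate 1 or 4 or Wnt4hi replicate 2 or 3 that unadjusted p was 0.064 to 0.080, and with the replicate number as a block it was 0.055.

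A pair of effectors went the other way. Isg20, an exonuclease that degrades RNA, was 9.61, 10.64 and 9.47 in Wnt4low and 12.31, 11.37 and 11.57 in Wnt4hi, a difference of 1.84 (SE 0.39, adjusted p = 0.15), which was 1.11 in the authors' normalized table and 0.83 on a second probe. Usp18 removes Isg15 from proteins and dampens signalling from the interferon receptor. It was 7.52, 7.81 and 7.76 in Wnt4low and 8.15, 8.75 and 8.58 in Wnt4hi, a difference of 0.80 (SE 0.20, adjusted p = 0.20). In the authors' normalized table Usp18 was higher by 0.97 (adjusted p = 0.038), the only alternative in which it passed after adjustment. Over all alternatives its adjusted p ranged from 0.038 to 0.43. The authors' values for Wnt4hi replicate 2, used for both genes, followed their own array with a correlation of only 0.28 over features. Neither Isg20 nor Usp18 overlapped between the populations. The remaining effectors did not pass the threshold, with a difference of -0.26 (95% interval -0.73 to 0.21) for Ifi35, 0.37 (-0.38 to 1.12) for Xaf1 and 0.09 (-0.89 to 1.07) for Oas1a.

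**Figure D2:**
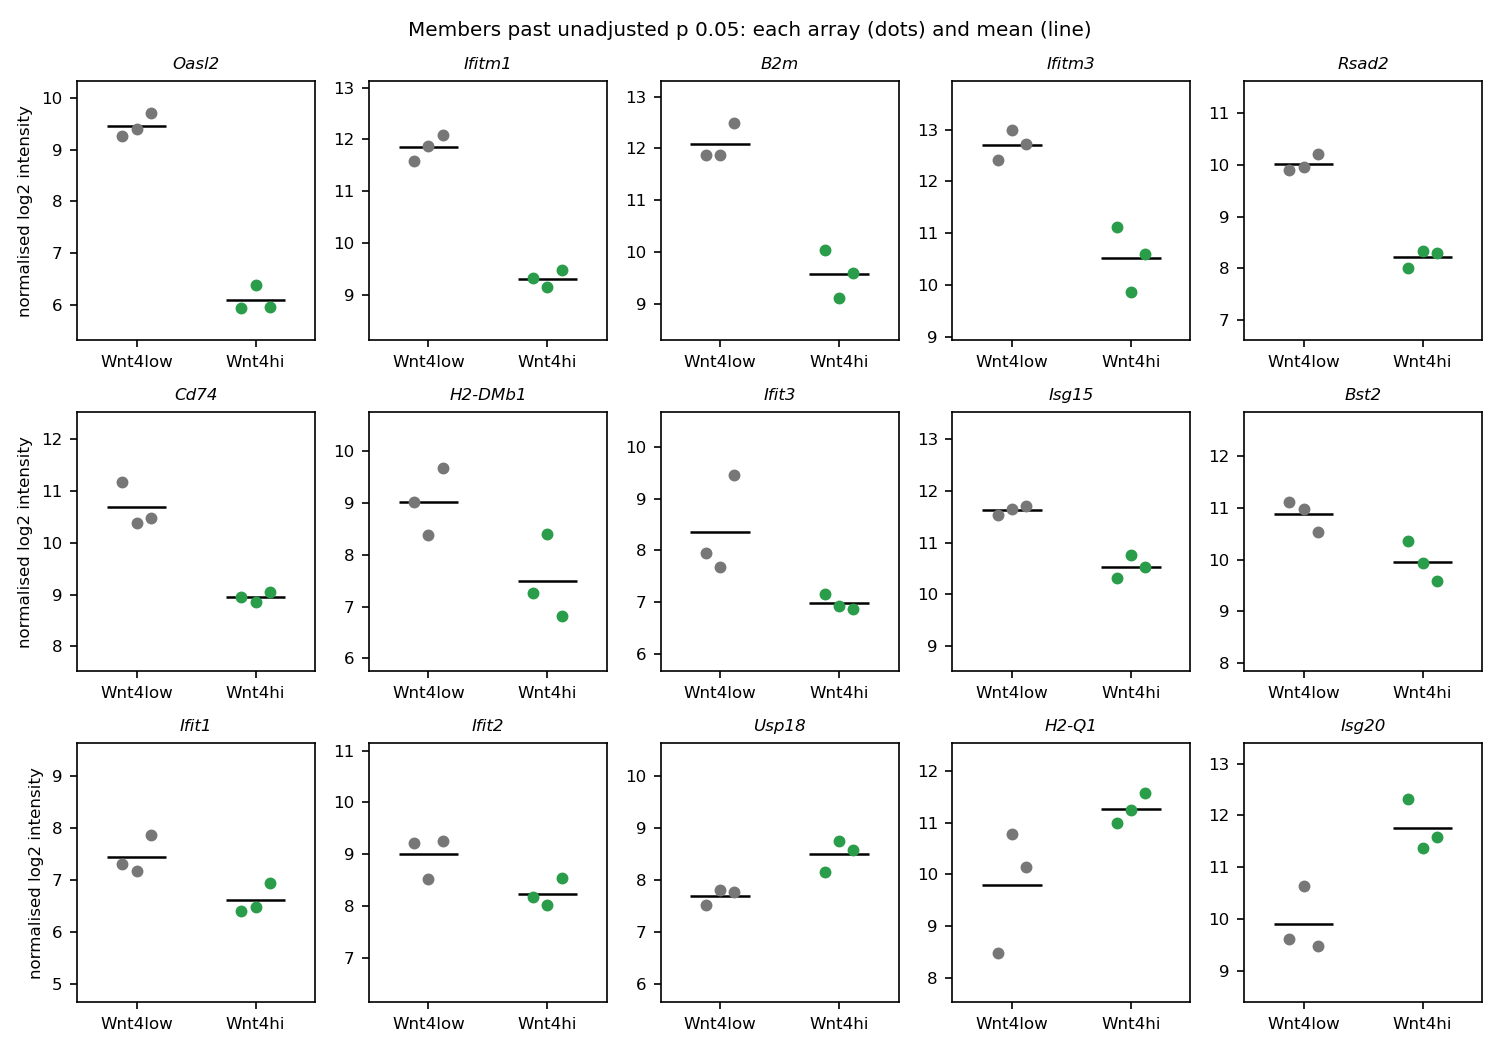
Normalised log2 intensity (vertical axis, the same span of 5 in each panel) of the 15 members past unadjusted p 0.05 on each of the 3 Wnt4low arrays (grey) and 3 Wnt4hi arrays (green), with lines at the means and panels ordered from the most negative to the most positive difference. The populations overlap for H2-DMb1 and Ifit2, and for the other 13 genes all Wnt4hi dots lie on 1 side of the Wnt4low dots.

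The promoters of several of these genes hold the letters that interferon-activated factors bind, the interferon-stimulated response element (ISRE). The sequences below are 100 bases each from RefSeq promoter windows (GRCm38.p6), which run from 250 bases before to 50 after each start site, written 5′ to 3′ in the direction of the gene. Capitals mark each match to GAAANNGAAA on either strand, where N is any base and matches may overlap, and a run that starts with TTTC is a match on the other strand. The first 7 genes were lower in Wnt4hi, and the last pair, a class I heavy chain and a transcription factor, held the letters without passing the threshold.

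B2m (chr2:122147503-122147602, plus strand): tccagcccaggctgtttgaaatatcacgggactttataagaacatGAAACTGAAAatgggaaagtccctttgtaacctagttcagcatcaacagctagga
Rsad2 (chr12:26456518-26456617, minus strand): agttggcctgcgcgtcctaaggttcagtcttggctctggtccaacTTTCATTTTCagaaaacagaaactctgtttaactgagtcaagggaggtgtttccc
Isg15 (chr4:156200836-156200935, minus strand): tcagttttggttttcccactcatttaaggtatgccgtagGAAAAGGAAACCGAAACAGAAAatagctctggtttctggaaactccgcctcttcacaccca
Ifitm3 (chr7:141010715-141010814, minus strand): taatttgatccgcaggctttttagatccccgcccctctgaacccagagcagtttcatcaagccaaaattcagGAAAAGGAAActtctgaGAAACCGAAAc
Bst2 (chr8:71537545-71537644, minus strand): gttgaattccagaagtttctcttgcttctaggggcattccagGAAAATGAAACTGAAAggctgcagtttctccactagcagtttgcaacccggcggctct
Ifit1 (chr19:34640749-34640848, plus strand): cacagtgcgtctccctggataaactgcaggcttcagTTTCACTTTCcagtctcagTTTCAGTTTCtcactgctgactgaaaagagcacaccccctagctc
Ifit3 (chr19:34583345-34583444, plus strand): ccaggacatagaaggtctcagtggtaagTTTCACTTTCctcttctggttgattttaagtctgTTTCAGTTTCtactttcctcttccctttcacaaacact
H2-T23 (chr17:36032771-36032870, minus strand): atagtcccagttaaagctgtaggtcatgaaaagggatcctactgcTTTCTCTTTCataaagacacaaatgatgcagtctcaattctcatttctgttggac
Stat2 (chr10:128270248-128270347, plus strand): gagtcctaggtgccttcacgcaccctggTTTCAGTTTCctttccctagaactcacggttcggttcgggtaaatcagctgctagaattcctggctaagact

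Of the 66 members, 53 had a promoter window in the RefSeq table. GAAANNGAAA was found in 7 of the 11 members with a window that were lower in Wnt4hi, not in Isg20, the only higher member with a window, in 4 of the 41 that did not pass the threshold, and in 3.99% of the 27025 genes of the table. The lower members with a window but without these letters were Oasl2, Ifitm1, Ifit2 and H2-DMb1. The 11 were mostly interferon-induced effectors and the 41 mostly H2- genes, so the 2 counts also set genes of different roles against each other. The members were drawn from genes known to respond to interferon, so a share above that of all genes follows in part from the choice. In Isg15 the letters occurred 3 times in overlapping copies, and in Bst2, Ifit1, Ifit3 and Ifitm3 they occurred 2 times. Oas1a, which did not pass the threshold, held them 2 times as well. H2-T22, which did not pass either, also held them, and the windows of Oas1a and H2-T22 are not printed. In Ifitm3 they began 3 bases after the start site. The GAS element, TTCNNNGAA, which reads the same on both strands, was found in 3 of the 11, in Isg20 and in 7 of the 41, against 9.55% of all genes, and in Bst2 and Ifitm3 it overlapped an ISRE match. CCAAT was found in 4 of the 11 and in 32 of the 41, against 41.1% of all genes. A match of letters is a description of the sequence and does not show that a factor was bound.

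The class I light chain was lower in Wnt4hi, and the classical class I heavy chains did not pass the threshold. B2m, without which class I molecules do not reach the surface, was 11.87, 11.88 and 12.48 in Wnt4low and 10.03, 9.10 and 9.59 in Wnt4hi. The lowest Wnt4low array was well over 1 log2 unit above the highest Wnt4hi array, and the difference was -2.50 (95% interval -3.22 to -1.79, adjusted p = 0.043). Another transcript, which carries the name B2m in the study's annotation and which the rule did not take in, was 9.46, 9.49 and 8.85 in Wnt4low and 8.70, 7.36 and 7.88 in Wnt4hi. It was lower without overlap, by -1.29 (SE 0.38, unadjusted p = 0.014 from limma, adjusted p = 0.27 over all probes).

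The classical heavy chains H2-K1 and H2-D1, which present peptides to CD8+ T cells, overlapped between the populations. H2-K1 was 12.58, 13.40 and 13.20 in Wnt4low and 12.87, 13.36 and 13.75 in Wnt4hi, a difference of 0.27 (95% interval -0.48 to 1.02). A dimmer H2-K1 probe, mentioned after its values were seen, was higher in Wnt4hi on every array, by 0.38 (SE 0.13, unadjusted p = 0.023 from limma). H2-D1 was 12.26, 13.21 and 12.56 in Wnt4low and 12.22, 13.21 and 12.97 in Wnt4hi, a difference of 0.13 (95% interval -0.72 to 0.97).

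**Figure D3:**
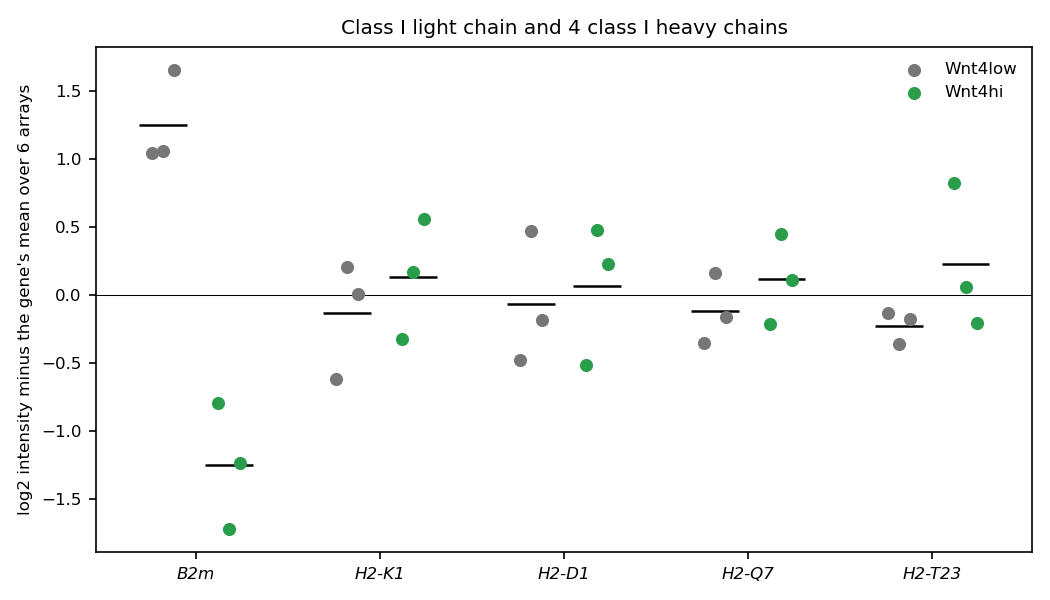
Log2 intensity of B2m and 4 class I heavy chains, chosen after their values were seen, on each array as the difference from the gene's own mean over the 6 arrays (vertical axis), for Wnt4low (grey) and Wnt4hi (green), with lines at the means. The B2m means of the populations differ by -2.50, while the values of H2-K1, H2-D1, H2-Q7 and H2-T23 overlap.

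The other 26 class I genes, most of them non-classical heavy chains or pseudogenes of the Q, T and M regions, had a median difference of 0.12, with 22 above 0 and 4 below, and ranged from -0.75 to 1.47. Over all features the median was 0.07, and 28994 of 45616 lay above 0. H2-Q1 alone passed the unadjusted threshold. It was 8.48, 10.78 and 10.14 in Wnt4low and 10.98, 11.25 and 11.58 in Wnt4hi, a difference of 1.47 (SE 0.58, adjusted p = 0.45), which became 0.81 without Wnt4low replicate 1. Its unadjusted p from limma was 0.060 to 0.12 without Wnt4low replicate 4 or any 1 Wnt4hi array. H2-T22, the most negative of them and named after its values were seen, was 10.31, 10.01 and 9.78 in Wnt4low and 8.62, 9.46 and 9.79 in Wnt4hi, a difference of -0.75 (95% interval -1.54 to 0.04). H2-M10.1, H2-M10.5 and H2-M10.6, of a family known from the vomeronasal organ, were not well above background on any of the 6 arrays. Many class I genes are nearly identical in sequence, so a probe named for one may also bind others, and values of single H2-K, H2-D, H2-Q and H2-T genes are uncertain to that extent. H2-Ke6 differed by 0.43 (95% interval -0.03 to 0.88), which did not pass the threshold.

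The member genes that cut, move and load the peptides did not pass the threshold. The transporter chains Tap1 and Tap2 differed by 0.21 (95% interval -0.48 to 0.90) and -0.56 (-1.32 to 0.21), and Tapbp (tapasin), which holds class I at the transporter, by 0.30 (-0.51 to 1.11). The immunoproteasome subunits Psmb8, Psmb9 and Psmb10, which replace standard subunits under interferon, differed by -0.44 (-1.40 to 0.52), -0.15 (-0.89 to 0.59) and -0.20 (-0.83 to 0.44). Each of these 6 intervals includes 0, and the widest reaches down to -1.40. Of the 3 standard subunits that they replace, Psmb6 was higher in Wnt4hi by 0.82 (SE 0.32, unadjusted p = 0.042 from limma, adjusted p = 0.45) and the other 2 did not pass. Of 6 chaperones and trimming factors of class I, Calr, Canx and Erap1 among them, 0 passed in either direction at the unadjusted threshold. All 6 lay above 0 (median 0.24), as did 28994 of all 45616 features (median 0.07).

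The class II chains overlapped between the populations, but the invariant chain did not. H2-Aa was 10.68, 7.81 and 9.52 in Wnt4low and 9.20, 7.69 and 8.31 in Wnt4hi, and H2-Ab1 was 10.55, 8.45 and 9.58 in Wnt4low and between 8.24 and 9.11 in Wnt4hi. Both were highest on Wnt4low replicate 1 and varied by over 2 log2 units within Wnt4low, so that differences of -0.94 (95% interval -2.80 to 0.93) and -0.74 (-2.07 to 0.59) were not resolved. Over the alternatives these differences ranged from -1.70 to -0.26 and from -1.28 to -0.23, and each passed the unadjusted threshold under 1. The median over the 4 class II chains, -0.54, became -0.22 without Wnt4low replicate 1 and -0.91 without Wnt4low replicate 3. H2-Eb1 differed by -0.34 (-0.85 to 0.18) and H2-Eb2 by -0.06 (-0.39 to 0.26). Cd74 was 11.18, 10.39 and 10.49 in Wnt4low and 8.95, 8.86 and 9.05 in Wnt4hi, a difference of -1.73 (SE 0.24) just short of the adjusted threshold (adjusted p = 0.057). The Cd74 values of the 3 Wnt4hi arrays lay closer together than those of Wnt4low. Of the 5 markers shared by leukocytes 4 were also lower, while of 8 dendritic and B cell markers 0 passed in either direction. The part of these cells in the Cd74 difference was not tested.

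The H2-DM and H2-DO proteins help and restrain the loading of class II. H2-DMb1 was 9.02, 8.39 and 9.68 in Wnt4low and 7.26, 8.41 and 6.82 in Wnt4hi, where 1 of 3 arrays was well above background, a difference of -1.53 (SE 0.50, adjusted p = 0.34). Wnt4hi replicate 3 lay within the Wnt4low range of H2-DMb1, and the unadjusted p of 0.021 from limma became 0.051 to 0.068 without Wnt4low replicate 1 or 4 or Wnt4hi replicate 2 or 4. With the replicate number as a block it was 0.094. H2-DMb2 differed by -0.70 (95% interval -1.53 to 0.14), H2-DMa by -0.20 (-0.99 to 0.59), H2-Oa by -0.03 (-0.64 to 0.58) and H2-Ob by -0.02 (-0.40 to 0.36). H2-DMb2 and H2-Oa were also well above background on only 1 of 3 Wnt4hi arrays, so their differences lie partly at background. In the genome H2-DMb1, Psmb9, Tap1, Psmb8, Tap2 and H2-Ob follow one another, and of these neighbours only H2-DMb1 passed the threshold. Among 6 genes listed for class II processing, the protease Ctss, which trims the invariant chain, was lower by -1.51 (SE 0.41, adjusted p = 0.25), Lgmn by -0.88 (SE 0.35, adjusted p = 0.45) and Fcgrt by -1.11 (SE 0.21, adjusted p = 0.10), and 0 were higher at the unadjusted threshold. Fcgrt is not a protease but a class I-like receptor for antibodies that pairs with B2m. These 3 of 6 stand against the 5.53% of all features that were lower. The endothelial (12 of 12), leukocyte (4 of 5) and macrophage (6 of 12) markers given further on were lower as well, and their part in this was not tested.

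The transactivators and the transcription factors of the interferon response did not pass the threshold. Nlrc5, which switches on class I genes, differed by 0.20 (95% interval -0.36 to 0.76), and Ciita, which switches on class II genes, by 0.03 (-0.35 to 0.41). Of 7 factors that bind MHC promoters, Nfya, a subunit of the factor that binds CCAAT, was lower by -1.24 (SE 0.16, adjusted p = 0.049), and the other 6 did not pass. With the replicate number as a block 0 of all features passed after adjustment, Nfya included, and with 1 array left out 0 to 9 of all features did. Irf1 differed by 0.04 (-0.41 to 0.49), Irf7 by -0.23 (-1.11 to 0.64), Irf9 by -0.49 (-1.07 to 0.10) and Stat2 by 0.16 (-0.23 to 0.55). The factors that drive the effector genes were thus not called different at the level of the brightest probe.

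Further genes of the pathway were taken from lists and not from the members, and their counts stand against the 5.53% of all features that were lower and the 5.06% that were higher. Of 34 other interferon-stimulated genes 9 were lower at the unadjusted threshold, 1 was higher and 0 passed after adjustment, with a median difference of -0.43, which became -0.25 without Wnt4low replicate 4. The endothelial and leukocyte markers given further on were lower as well, and their part in this was not tested. The lower ones with the smallest p included Irgm2 (-1.08, SE 0.27), a GTPase that acts against intracellular pathogens, and Ifi27 (-1.25, SE 0.35), a mitochondrial protein. Iigp1, another such GTPase, had a mean at least 1.98-fold lower, since its probe was not well above background on any Wnt4hi array. Lgals3bp, a secreted glycoprotein, was the one that was higher (1.31, SE 0.26, adjusted p = 0.13).

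Of 14 receptors, kinases and regulators of interferon signalling 2 were lower, the receptor chain Ifnar2 (-1.16, SE 0.35) and the feedback inhibitor Socs3 (-0.49, SE 0.14), and 0 were higher. Of 14 sensors of viral nucleic acid 3 were lower and 0 were higher, namely Sting1 (-0.93, SE 0.22), Aim2 (-1.21, SE 0.33) and Tlr3 (-0.55, SE 0.22). None of these 5 genes passed after adjustment. Of 8 interferon genes and 6 other interferon regulatory factors, 0 passed in either direction at the unadjusted threshold, and for 3 interferon genes (Ifna4, Ifnk and Ifne) no array was well above background.

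Markers of several other cell types differed between the populations as well. All 12 endothelial markers were lower in Wnt4hi (8 after adjustment, and 0 with the replicate number as a block, where 0 of all features passed), with a median difference of -3.63 and a summed intensity of 4658 to 6705 in Wnt4hi and 39419 to 70181 in Wnt4low. The brightest of them, Egfl7, Plvap and Pecam1, differed by -2.15 (SE 0.30), -4.10 (SE 0.35) and -3.04 (SE 0.33), and Tek and Tie1 were not well above background on any Wnt4hi array. Of 5 markers shared by leukocytes 4 were lower, with a median of -1.14 and a summed intensity of 937 to 1319 in Wnt4hi and 2789 to 5033 in Wnt4low. Laptm5 differed by -2.20 and Coro1a by -1.14, and the pan-leukocyte gene Ptprc, which differed by -2.43, was well above background on 1 of 3 Wnt4hi arrays and on all Wnt4low arrays.

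Of 12 macrophage markers 6 were lower, with a median of -0.89 and a summed intensity of 12502 to 20579 in Wnt4hi and 25203 to 30271 in Wnt4low. Csf1r, the receptor that macrophages need, differed by 0.07 (SE 0.17), while Tyrobp differed by -1.67 and Cx3cr1 by -1.35, and Mrc1 was not well above background on any Wnt4hi array. Of 8 dendritic and B cell markers 0 passed in either direction at the unadjusted threshold (median -0.03, summed intensity 2993 to 3612 in Wnt4hi and 3226 to 3609 in Wnt4low). Zbtb46 and Cd79b, among the brightest, differed by -0.10 and 0.02. Itgax was not well above background on any Wnt4hi array, and Ms4a1 was not on any array of either population. Of 9 mesenchymal markers 7 were lower (median -1.57, summed intensity 34997 to 64213 in Wnt4hi and 79630 to 109514 in Wnt4low), with differences of -0.21 for Acta2, -1.18 for Col3a1 and -1.06 for Col1a2, the brightest.

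Beta cell markers went the opposite way, with 7 of 10 higher (median 1.45, summed intensity 328449 to 339628 in Wnt4hi and 190655 to 293972 in Wnt4low), as did alpha cell markers, with 3 of 5 higher (median 2.04, summed intensity 44822 to 79701 in Wnt4hi and 7800 to 43516 in Wnt4low). The brightest beta cell markers, Ins1, Ins2 and Mafa, differed by 0.43, 0.56 and -0.05, and Gcg and Irx1, among the brightest alpha cell markers, by 1.27 and 2.02. Without Wnt4low replicate 1, on which both lists were lowest, the median of the beta cell markers became 0.89 and that of the alpha cell markers 1.17. This was computed after the data were seen. Of 6 acinar markers 1 was lower and 0 were higher (median -0.45), and of 6 ductal markers 1 was lower and 1 was higher. The part of these cell types in the differences of B2m, Cd74 and the effectors was not tested.

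**Figure D4:**
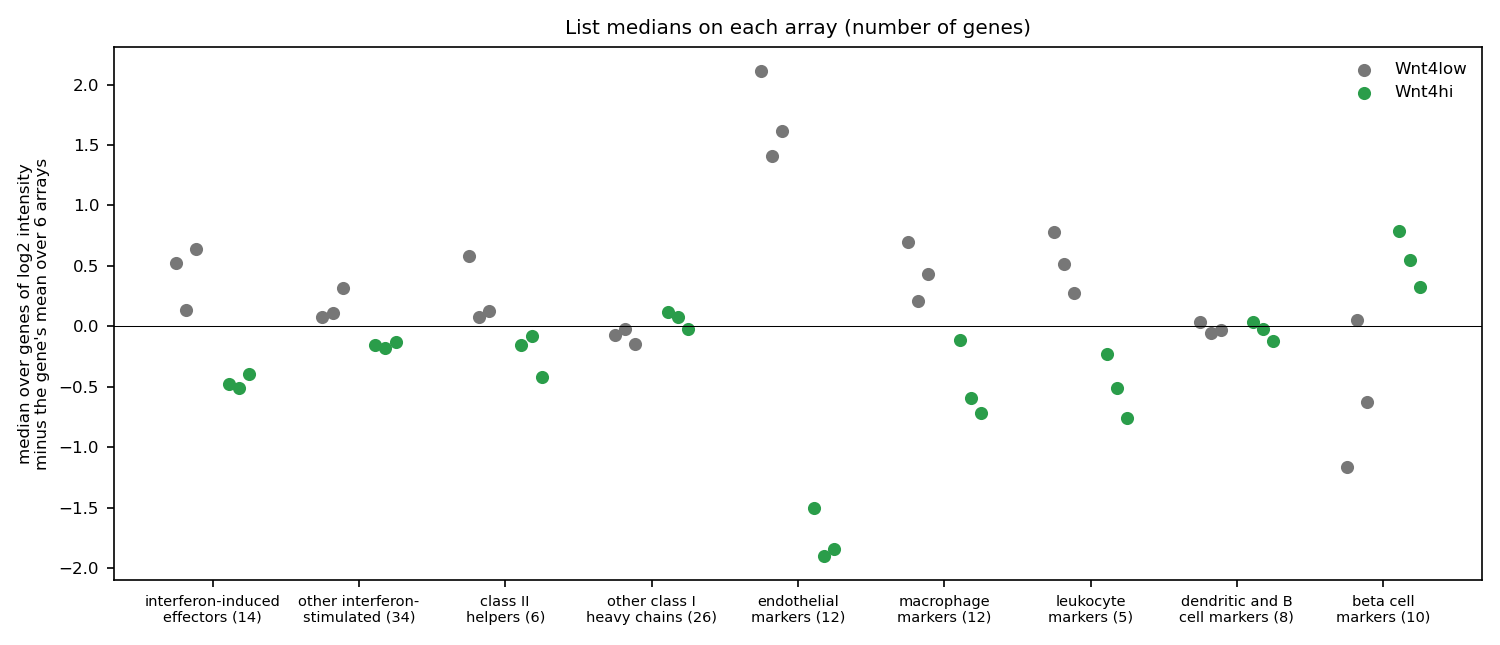
Median over the genes of each list of the log2 intensity minus the gene's mean over the 6 arrays (vertical axis), on each Wnt4low (grey) and Wnt4hi (green) array, with the number of genes in brackets. The effectors lie between 0.14 and 0.64 in Wnt4low and between -0.51 and -0.39 in Wnt4hi, the endothelial markers between 1.41 and 2.11 and between -1.90 and -1.50, and the other class I heavy chains, without H2-K1 and H2-D1, between -0.15 and 0.12 on all 6 arrays.

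Probes of one gene did not always give the same answer. Of 25 members with more than 1 probe, 10 had probes of opposite sign and 5 had a probe over 1 log2 unit away from the brightest, which stands for the gene. The values that follow come from the same test run over all probes. The second Rsad2 probe was 7.77, 7.63 and 8.42 in Wnt4low and 7.83, 8.12 and 7.59 in Wnt4hi. A second Xaf1 probe was 7.97, 8.59 and 9.62 in Wnt4low and not well above background on any Wnt4hi array. Its mean was at least 2.64-fold lower (unadjusted p = 0.0036 from limma), where the probe that stands for the gene differed by 0.37. On the 3 Wnt4low arrays this second Xaf1 probe was the brighter one, so the choice of the probe by its mean over all 6 arrays set that Xaf1 is counted as not passing. The dimmer Irf1 probe was 10.72, 11.39 and 11.78 in Wnt4low and 10.37, 10.59 and 10.12 in Wnt4hi, lower without overlap by -0.94 (SE 0.30, unadjusted p = 0.019 from limma), where the brighter probe differed by 0.04.

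The dimmer probe of Stat2 differed by -0.84 (SE 0.56) and that of Tap1 by -0.83 (SE 0.69), both below 0 where the brighter probe lay above it. For Isg20 both probes were higher in Wnt4hi, by 1.84 and 0.83. The other members with probes of opposite sign, H2-Eb2, H2-Ke6, H2-M10.1, H2-Ob, H2-T-ps and Nlrc5, had differences from -0.13 to 0.16 on the probe that turned the sign.

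**Figure D5:**
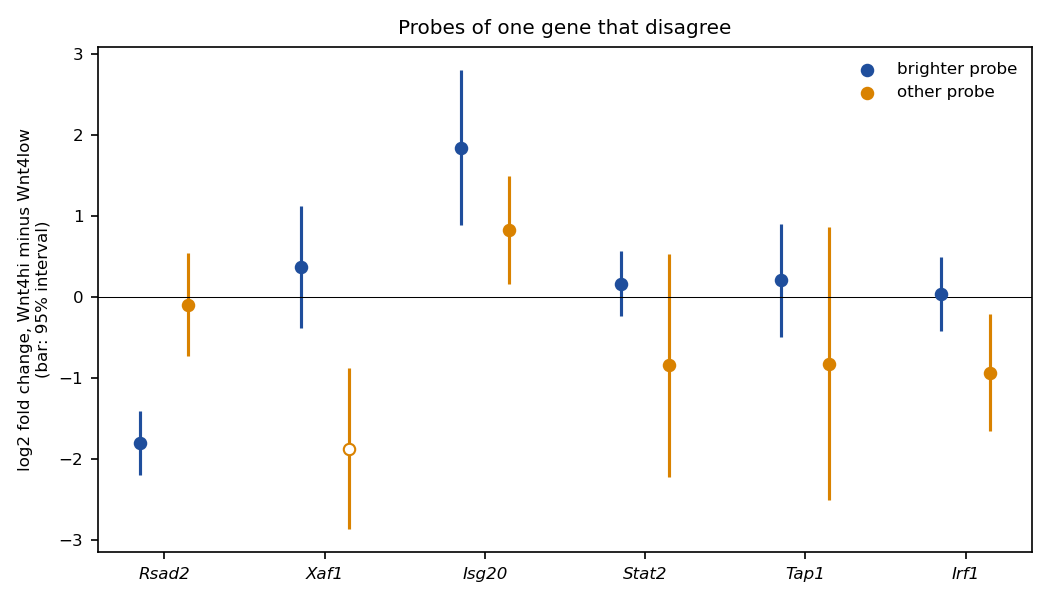
Log2 fold change (Wnt4hi minus Wnt4low, vertical axis) with its 95% interval from limma for the probe that is brighter over the 6 arrays (blue) and the other probe (orange) of 6 genes; an open dot marks a probe not well above background on any array of a population, drawn at its measured difference, for which only a bound holds. The 2 probes of Rsad2 lie at -1.81 and -0.09, the brighter Xaf1 probe lies at 0.37 and the other is open and below 0, and those of Isg20 lie both above 0.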

How the data were processed

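P1 islet cells, sorted from Wnt4eGFPCre; mTmG pups, were measured on 6 single-color Agilent arrays (3 Wnt4hi, 3 Wnt4low) on 1 slide, and groups were taken from the sample labels. The authors deposited the scanner output (Agilent Feature Extraction 9.1 per the labels, while the file headers name a later version) with the intensity of each spot and its background in the Cy5 channel, not normalized, and a table of normalized log2 values, which was used as an alternative.

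Intensities were processed with limma 3.58.1 (R 4.3.3) after the study's methods: normexp with an offset of 50 on median intensities, quantile normalization and eBayes without covariates. Outlier spots by the software's own flags, 50 to 141 on an array, were left out. Of 35886 probes of the RefSeq type 32994 matched the RefSeq table of GRCm38.p6, which was used for names, gene order and promoter windows, while probes were not placed by coordinate because the array design is older. The probe with the highest mean stood for a gene. P-values were adjusted by Benjamini-Hochberg over 45616 features. The alternatives concerned background, normalization, dim probes, outlier spots, probe choice, variance model, the deposited table, the replicate number and each array. The number of arrays limits the precision.

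All listed symbols, H2-K1, H2-D1 and the class II genes were named with values, other H2- genes where p was under 0.05 or no array was above background, and up to 4 genes per pathway list by p. Members and lists were chosen with earlier results of these data known. Other genes of the pathway and marker lists are not reported by name here.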

Additional observations from a re-analysis of the deposited data

How the results depend on the processing

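The counts of members lower (10 to 13) and higher (2 or 3) in Wnt4hi at the unadjusted threshold moved by at most 1.5 times under all 9 alternatives that keep the 6 arrays, and lay between 10 and 15 and between 2 and 4 when single arrays were left out. The 4 members past adjusted p 0.05 became 7 with the filter on dim probes, which tests fewer features, and 0 when any 1 array was left out, where 0 to 9 of all features passed. Over all features 201 passed it, 508 with that filter and 406 in the authors' table. With the replicate number as a block (replicate block) 0 members and 0 features passed the adjusted threshold, and 11 members were lower and 3 higher at the unadjusted one. Only numbers 3 and 4 occur in both populations. Per the labels same-numbered arrays held the same number of pups (4 for number 3, and 3 for number 4, the only pools of 3), but the labels do not say that they share a pool, and deviations of same-numbered arrays correlated at -0.03 and 0.16, which does not settle whether they share a pool, so the arrays were compared without the block. The median over the members (0.030) ranged from -0.060 to 0.061 when single arrays were left out, with -0.060 without Wnt4low replicate 4, and lay below 0 with processed intensities (-0.0084), the mean of probes (-0.012) and the authors' table (-0.023). Of the 15 members past the unadjusted threshold 0 changed sign. H2-DMb1 passed under 9 of 14 alternatives, H2-Q1 under 10 of 15, Ifit2 under 9 of 15, Ifit3 under 13 of 15 and Ifit1 under 13 of 14, and the other 10 passed under every alternative that measured them. Beside the losses without single arrays given above, the block lost H2-DMb1 and Ifit2, processed intensities lost H2-Q1, and the authors' table lost Ifit1 and Ifit2. The difference of Ifit1 was -1.68 with processed intensities, that of Isg20 was 1.11 in the authors' table, and that of H2-Q1 was 0.95 with the block. Of the 51 members not past the unadjusted threshold, 25 changed sign under 1 or more of the alternatives and 10 passed it under 1 or more. With the mean of probes Rsad2 differed by -0.95 (adjusted p = 0.11), and the adjusted p of Rsad2 lay between 0.013 and 0.12 over the alternatives, that of Oasl2 between 0.0065 and 0.11, that of Ifitm1 between 0.0096 and 0.12 and that of B2m between 0.018 and 0.14. The authors' table held 61 members. Its columns followed their own arrays with correlations of 0.88 to 0.90 over features, except that of Wnt4hi replicate 2, at 0.28, so that its values for that sample could not be traced to its scanner output.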
